A study of Mus musculus with 36 samples.

Results

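The comparison is between bone marrow-derived macrophages of N4bp1 knockout (KO) and wild-type (WT) mice after transcription had been blocked for 2 h. It rests on 6 of the 36 libraries of the series, the 3 labelled N4bp1 KO and the 3 labelled WT that received R837 for 3 h and then actinomycin D (ActD) for 2 h. They were chosen by these labels alone, and the number of counted reads per gene in exons was compared across all genes. The other libraries cover R837 for 3 h or 7 h and ActD for 0.5, 1 or 4 h, again with 3 per genotype and condition. They entered the fit as a shared estimate of the spread between libraries.

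Marrow came, per the labels' protocol, from wild-type C57BL/6N mice and was grown in M-CSF, the growth factor that drives marrow cells to macrophages; 3 individual mice gave the replicates. The same text was attached to the KO libraries, and neither the strain of the KO mice nor the deleted part of N4bp1 is in the sources used here. All 6 libraries shared R837 and ActD, and no unstimulated cells were analysed here. RNA libraries were made with the TruSeq RNA v2 kit, which does not mark strand, so reads of overlapping genes on opposite strands cannot be told apart. Libraries of a genotype at different times may come from the same mice, in which case p-values that pool the spread are too small.

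R837 (imiquimod) engages Toll-like receptor 7 (TLR7), an endosomal sensor of single-stranded RNA that signals through MyD88 to NF-kB and induces inflammatory cytokines. N4BP1 is a protein with KH-like and NYN (PIN-like) ribonuclease domains that restrains this cytokine response in macrophages and is cut by caspase-8. ActD intercalates into DNA and stops RNA polymerases, so a transcript present after 2 h had largely been made earlier, and its level reflects both how much was there and how quickly it was lost. Many cytokine transcripts are short-lived because their 3' untranslated region (UTR) carries AU-rich elements, bound by factors such as tristetraprolin (Zfp36), or stem-loops cut by Regnase-1 (Zc3h12a).

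The AU-rich sites of the cytokine transcripts that the results turn on are shown first, each as 24 bases of annotated 3' UTR (GRCm38, GENCODE M21), written 5' to 3' along the transcript. Capitals mark the heptamer TATTTAT, searched on the sense strand with overlapping copies allowed. Windows were placed only at a fixed distance before a copy, and each shown is one with most copies among those of its gene. Other placements were not searched and may hold more.
Tnf: tTATTTATTATTTATTTATtattt
Il6: atgattgaTATTTATtatttttat
Cxcl1: gtccTATTTATTTATgTATTTATt
Cxcl2: tatctatgTATTTATTTATTTATt
Cxcl3: tcagttgtTATTTATtgaaatggt
Il1b: taccTATTTATTTATgTATTTATt
Il10: ctccgaaaTATTTATtacctctga
The Tnf window lies at chr17:35199684-35199707 on the minus strand and holds 3 of the 8 copies counted over 764 bases of UTR. Il6 has 1 copy (chr5:30019731-30019754), Cxcl1 has 6 (chr5:90892606-90892629), Cxcl2 has 7 (chr5:90905335-90905358) and Cxcl3 has 2 (chr5:90787870-90787893), all on the plus strand. Il1b has 3 copies (chr2:129364806-129364829, minus strand) and Il10 has 4 (chr1:131024388-131024411, plus strand). The UTRs of the chemokine transcripts Ccl5 and Cxcl10 and of N4bp1 hold 0 copies. Over all tested genes with an annotated 3' UTR, 3513 of 11608 (30.3%) hold the heptamer.

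The 6 libraries held 20.7 to 29 M counts each, and log-scale levels of libraries of 1 genotype correlated at 0.9906 to 0.9936 across genes, against 0.9843 to 0.9875 between genotypes. Every pair of libraries differed by more than sampling noise (chi-square per degree of freedom of at least 3.65), so none was counted as a duplicate. Levels are in CPM, a gene's share of its library's counts scaled by the trimmed mean of M-values (TMM). Macrophage markers summed to 45500 to 46500 CPM in KO and 46300 to 50300 CPM in WT, so the labelled cell type was present in both. Of the total counts, the list of ribosomal protein and elongation factor genes took 0.848 to 0.882% in KO and 0.889 to 0.992% in WT.

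The targeted gene did not separate the genotypes at this time. N4bp1 (ENSMUSG00000031652, GRCm38 chromosome 8, 86808160 to 86885258, minus strand) was at 88.1, 81.9 and 84.6 CPM in the KO libraries and at 89.2, 76.8 and 74.7 CPM in the WT libraries. The groups overlapped, and the log2 difference was 0.08 ± 0.08 (SE, n = 3 per genotype, edgeR adjusted p = 0.451). At 3 h of R837, in libraries not used for that value, the levels were 86, 85 and 81.3 CPM in KO and 125, 147 and 128 CPM in WT, a log2 difference of -0.67. The WT level after ActD was 60.1% of that at 3 h and the KO level 101%. Exonic counts can come from exons outside a deletion, so N4bp1 counts do not check the genotype labels of the 6 libraries.

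After 2 h of ActD, 4146 of 13748 genes tested (30.2%) differed between KO and WT at an adjusted p below 0.05 (edgeR quasi-likelihood F test with Benjamini-Hochberg adjustment). Of these, 2023 (14.7%) were higher in KO and 2123 (15.4%) lower, but only 241 (1.75%) and 128 (0.931%) by at least 2-fold. The median size of the log2 difference over all genes was 0.24, beside a median SE of 0.12, so most differences were small. In bulk RNA, more cells of a type and more RNA per cell cannot be told apart, and this holds for every difference reported here. The 3 KO and the 3 WT libraries did not overlap in 6308 genes (45.9%). Scaling to the ribosomal list in place of TMM raised all differences by a median of 0.15 log2 and turned the split into 2658 higher and 773 lower, with 344 and 63 at least 2-fold.

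Tnf, Il6, Cxcl1, Cxcl2 and Cxcl3 were 2.01- to 3.57-fold higher in KO, and Il1b and Il12b 1.43- and 1.52-fold. Tnf, encoding a cytokine released early after TLR engagement, was at 64.3, 59.6 and 57.8 CPM in the KO libraries and 30.7, 31.2 and 28.2 CPM in WT. No KO library came near a WT library, and the log2 difference was 1.01 ± 0.06 (2.01-fold, edgeR adjusted p = 1.07e-15). Il6, encoding interleukin 6, was at 30.7, 24.8 and 27.8 CPM in KO and 11.2, 8.85 and 9.49 CPM in WT. This was the larger of the pair, with a log2 difference of 1.51 ± 0.13 (2.84-fold, edgeR adjusted p = 1.98e-11).

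The CXCR2 ligand genes Cxcl1, Cxcl2 and Cxcl3 lie near each other on chromosome 5. Cxcl1 was at 177, 131 and 140 CPM in KO and 65, 55.7 and 67.5 CPM in WT (a log2 ratio of 1.25 ± 0.11). Cxcl2 was at 379, 306 and 295 CPM in KO against 165, 154 and 166 CPM in WT (1.02 ± 0.09). Cxcl3 was at 112, 99.3 and 113 CPM in KO against 29.6, 29.1 and 32.2 CPM in WT (1.83 ± 0.09, 3.57-fold, edgeR adjusted p = 7.28e-18). For each of these chemokines the lowest KO library was above the highest WT library.

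Smaller differences were found for interleukin genes with high levels. Il1b, encoding pro-interleukin 1 beta, was at 1478, 1238 and 1347 CPM in KO and 980.1, 867 and 988 CPM in WT (a log2 ratio of 0.52 ± 0.08). Il12b, encoding the p40 subunit shared by interleukins 12 and 23, was at 478, 486 and 548 CPM against 332, 307 and 358 CPM (0.60 ± 0.14). Both sets of libraries were fully apart.

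Csf3, the gene of G-CSF, which drives granulocyte production, had 2.3, 3.2 and 3.02 CPM in KO and 1.57, 1.67 and 2.09 CPM in WT (a log2 ratio of 0.68 ± 0.20, edgeR adjusted p = 0.00942). Its call was lost without the second KO library (edgeR adjusted p = 0.0568) or the second WT library (0.0516). Ccl5, encoding the T cell chemoattractant RANTES, had 500, 483 and 497 CPM in KO and 414, 324 and 384 CPM in WT (0.40 ± 0.13, edgeR adjusted p = 0.0161), and lost its call without the second WT library (0.121). Il10, encoding an anti-inflammatory cytokine, had 69.6, 57.7 and 51.8 CPM in KO and 73.3, 60.8 and 59.2 CPM in WT. The Il10 groups overlapped and its difference did not pass the test (-0.11 ± 0.10, edgeR adjusted p = 0.439). Per length, in the authors' RPKM values, mean levels in KO ran from 1.81 for Csf3 to 897 for Il1b.

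**Figure D1:**
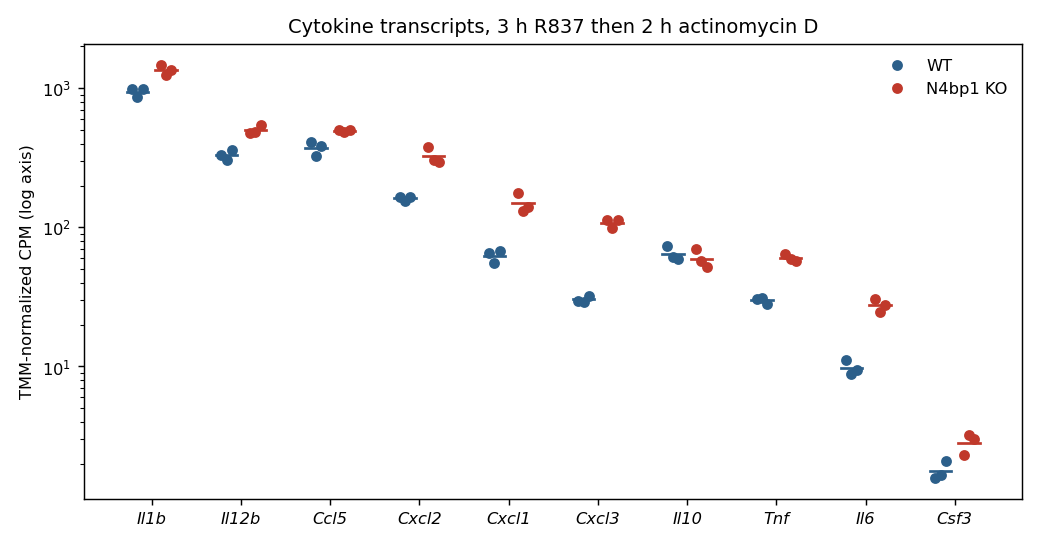
TMM-normalized CPM (vertical log axis) of 10 cytokine transcripts after 3 h of R837 and 2 h of ActD, with 1 point per library (WT blue, KO red) and a bar at each group mean. The red points lie above the blue points for 9 transcripts, and for Il10 they overlap.

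Among all genes with a mean CPM of at least 5 and non-overlapping groups, the highest KO-to-WT ratios were in a mixed set. Igha (chromosome 12, 113254830 to 113260236), the heavy chain constant gene of immunoglobulin A, was at 28.3, 30.2 and 28.1 CPM in KO and 3.44, 5.22 and 3.93 CPM in WT (6.76-fold, log2 2.76 ± 0.13). Jchain, which joins immunoglobulin A and M subunits, was at 12.5, 13.6 and 17 CPM against 3.05, 5.19 and 4.42 CPM (1.75 ± 0.15). B and plasma cell markers together summed to 177 to 190 CPM in KO and 78.8 to 90.7 CPM in WT, and their part in these differences was not tested. Ly6i and Ly6a, encoding membrane-anchored Ly6 family proteins, differed by 2.54 ± 0.14 and 1.74 ± 0.09. Genes of the Ly6, immunoglobulin and class I H2-Q families have near-identical neighbours, so reads could be split among them, and their values are uncertain.

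The remaining genes of that set encode signalling and structural proteins. Rasgrp1, a Ras activator, was at 16.6, 18.4 and 18.7 CPM in KO and 4.47, 4.19 and 3.83 CPM in WT (a log2 ratio of 2.10 ± 0.14). Adora2a, an adenosine receptor gene, was at 23.6, 22.8 and 22.4 CPM against 5.7, 5.93 and 5.81 CPM (1.98 ± 0.12), with little scatter in either genotype. Dgat2, which makes triglycerides, followed at 1.92 and Fscn1, which bundles actin, at 1.71. The G protein-coupled receptor gene Gpr132 was at 1.61, the class Ib antigen gene H2-Q6 at 1.56 and the co-receptor gene Cd4 at 1.52.

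The 12 lowest ratios were likewise in a mixed set, with Tnfsf10 the lowest. Tnfsf10, encoding the death ligand TRAIL, was at 22.3, 21.2 and 23.1 CPM in KO and 88.3, 66.8 and 73 CPM in WT (a log2 ratio of -1.77 ± 0.14, 3.42-fold lower). Rsad2, encoding the antiviral enzyme viperin, was at 864, 787 and 811 CPM against 2348, 1761 and 1732 CPM (-1.25 ± 0.12). Its genomic neighbour Cmpk2, a mitochondrial nucleotide kinase gene, was at 718, 614 and 630.0 CPM against 1829, 1406 and 1392 CPM (-1.24 ± 0.11). In both, the first WT library was the highest, and the KO libraries were below every WT library.

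Pbk, a mitotic kinase gene, was at 4.78, 5.32 and 5.44 CPM in KO and 13.3, 14.5 and 13.4 CPM in WT (a log2 ratio of -1.41 ± 0.13). The kinetochore genes Nuf2 (-1.18) and Ndc80 (-1.16) and the replication-licensing inhibitor gene Gmnn (-1.27) were also among the 12 lowest. The others were the G protein gene Gna15 (-1.38), the lysophosphatidylserine receptor gene Gpr34 (-1.36), the neuronal pentraxin gene Nptx1 (-1.29), the olfactory receptor gene Olfr56 (-1.22) and the intermediate filament gene Nes (-1.17).

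**Figure D2:**
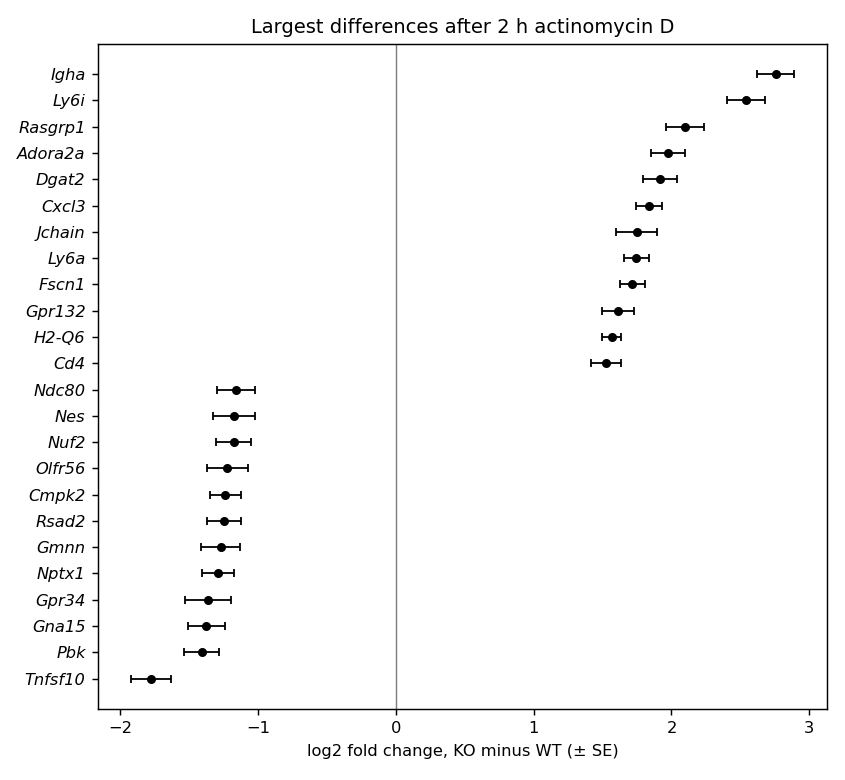
Log2 difference KO minus WT (horizontal axis, points with SE bars, n = 3 per genotype) for the 12 highest and 12 lowest genes among those called, with a mean CPM of at least 5 and non-overlapping libraries. The points run from Igha at 2.76 to Tnfsf10 at -1.77.

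Gene lists were then described by how many tested members were called, to be read against 14.7% higher and 15.4% lower over all genes, and a median log2 difference of -0.02 over all genes. Cytokines and chemokines had 24 of 46 members higher and 8 lower, with a median of 0.51. The member with the smallest p outside those above was Tnfsf9, encoding the co-stimulatory ligand 4-1BBL, at 35.4, 34.2 and 32.4 CPM in KO and 12.9, 13.9 and 12.1 CPM in WT (1.39 ± 0.08). Among the members that were lower, chosen after their values were seen, were the monocyte chemoattractant genes Ccl7 (-1.09), Ccl12 (-0.84) and Ccl2 (-0.67).

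Reported Regnase-1 targets had 14 of 20 members higher and 1 lower, with a median of 0.53. The 1 lower was Id1, an inhibitor of helix-loop-helix factors, at 0.482, 0.6 and 0.635 CPM in KO and 1.43, 1.35 and 1.29 CPM in WT. AU-rich element transcripts had 18 of 35 higher and 4 lower (Ccl2, Ccl7, the urokinase gene Plau at -0.60 and the dendritic cell surface gene Cd83 at -0.58), with a median of 0.50. These 3 lists share members such as Il6, Cxcl1 and Cxcl2, so their counts are not separate observations. They were also written with cytokine results of these libraries known, and so give no independent evidence of their direction.

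The heptamer, counted as present in any number of copies, was spread evenly over the calls as a whole. Among tested genes with a 3' UTR it was in 30.5% of the 1921 that were higher and in 30.6% of the 1973 that were lower, beside 30.3% of all. It was in 35.1% of the 191 that were at least 2-fold higher and in 28.6% of the 105 at least 2-fold lower. The 177 genes with 4 or more copies, such as Tnf and Cxcl1, had 23.2% higher and 11.9% lower and a median difference of 0.05, against 16.5% and 16.9% among the 8095 genes with 0 copies. Their median UTR was also longer, at 3407 against 854 bases. Genes with 1 copy had 17.2% higher and 17.4% lower, those with 2 copies 14.8% and 17.0%, and those with 3 copies 13.3% and 19.2%. The share that was higher thus did not rise steadily with the number of copies. Il10, with 4 copies, did not pass the test, while Ccl5, with 0 copies, did.

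NF-kB pathway and feedback genes had 19 of 28 members higher and 3 lower, with a median of 0.35 (20 and 1 with ribosomal list scaling). Traf1, encoding a TNF receptor adaptor, was at 326, 302 and 305 CPM in KO and 149, 147 and 143 CPM in WT (a log2 ratio of 1.09 ± 0.05, edgeR adjusted p = 1.19e-18). The inhibitor gene Nfkbie was at 0.77, and Tnfaip2 and the apoptosis inhibitor gene Birc3 were both at 0.49. The 3 that were lower were Tnip3 (-0.52), the kinase gene Tbk1 (-0.24) and the kinase scaffold gene Ikbkg (-0.17). The list was not split into feedback inhibitors and activators of the pathway.

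In the TLR pathway list 11 of 31 members were higher and 4 lower (median 0.12). Irak3, encoding a negative regulator of TLR signalling, was at 85.9, 82.6 and 83.8 CPM in KO and 57.3, 50.7 and 50.8 CPM in WT (a log2 ratio of 0.67 ± 0.07). Tlr1 (0.43) and the transcription factor gene Irf7 (0.49) were also higher. Tlr4, the lipopolysaccharide receptor gene, was at 49.8, 47.3 and 50.5 CPM against 78.8, 76.7 and 77.0 CPM (-0.66 ± 0.09). Tlr7, the receptor gene for R837, had 169, 164 and 174 CPM in KO and 174, 156 and 156 CPM in WT, and did not pass (0.06 ± 0.10, edgeR adjusted p = 0.693).

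Caspase-8 and cell death genes had 7 of 24 members higher and 4 lower, with a median of 0.03 (9 and 1 with ribosomal list scaling, median 0.17). Casp8 itself was at 131, 116 and 122 CPM in KO and 166, 156 and 156 CPM in WT (a log2 ratio of -0.38 ± 0.07). The inflammasome sensor gene Nlrp3 was at 258, 262 and 242 CPM against 158, 149 and 152 CPM (0.73 ± 0.09). The pro-apoptotic gene Bcl2l11 was at 0.64, and the survival gene Bcl2a1a, which has near-identical copies and is uncertain, at 1.37.

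Factors that degrade or protect mRNA had 13 of 45 members higher and 6 lower (17 and 0 with ribosomal list scaling), with a median of 0.12. Zfp36, encoding tristetraprolin, was at 31.1, 28.2 and 27 CPM in KO and 18.1, 17.5 and 16.4 CPM in WT (a log2 ratio of 0.73 ± 0.11). The AU-rich element binding gene Hnrnpd (0.44) and the exosome gene Exosc3 (0.42) were higher and the exonuclease gene Xrn1 lower (-0.42, adjusted p = 0.141 in edgeR with ribosomal list scaling). Zc3h12a, encoding Regnase-1, had 22, 24.3 and 25.2 CPM in KO and 20, 19.8 and 23 CPM in WT and did not pass (0.19 ± 0.09, edgeR adjusted p = 0.122).

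Immediate early genes had 9 of 31 members higher and 3 lower (median 0.31). Maff, a small Maf factor gene, was at 44.7, 42.9 and 42.5 CPM in KO and 20, 18.1 and 18 CPM in WT (a log2 ratio of 1.22 ± 0.07). Atf3, a stress-induced repressor of cytokine genes, was at 198, 168 and 182 CPM against 390, 382 and 391 CPM (-1.08 ± 0.07, edgeR adjusted p = 3.75e-15). The feedback list of SOCS, interleukin 10 and STAT genes had 10 of 17 higher and 2 lower (median 0.25; 10 and 0 with ribosomal list scaling), with the interleukin 1 receptor antagonist gene Il1rn at 0.48, the receptor gene Il10ra at 0.49 and the repressor gene Bcl6 at 0.46.

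Macrophage effector genes had 27 of 39 members higher and 3 lower, with a median of 0.52. The matrix protease gene Mmp9 was at 55.2, 50.4 and 45.9 CPM in KO and 19.8, 20.6 and 19.3 CPM in WT (a log2 ratio of 1.34 ± 0.09). Mmp14, a membrane-bound matrix protease gene, was at 382, 452 and 387 CPM against 201, 190 and 198 CPM (1.05 ± 0.08). Ptges, which makes prostaglandin E2, was at 433, 440 and 423 CPM against 236, 244 and 247 CPM (0.83 ± 0.05). The 3 that were lower were the elastase gene Mmp12 (-0.88), the arginase gene Arg1 (-0.65) and Plau.

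Type I interferon response genes had 9 of 39 members higher and 14 lower, with a median of -0.13. With ribosomal list scaling these were 10 and 8, with a median of 0.01, so the direction of the list as a whole depended on the scaling. Cxcl10, an interferon-induced chemokine gene, was at 1819, 1608 and 1638 CPM in KO and 3427, 3001 and 2872 CPM in WT (a log2 ratio of -0.88 ± 0.07). Ifit2, an antiviral RNA-binding gene, was at 846, 739 and 793 CPM against 1851, 1431 and 1448 CPM (-0.99 ± 0.12). Rsad2 and Cmpk2, above, belong to the same list. These 4 genes were its members with the smallest p and were all lower, so they do not stand for the 9 that were higher.

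Proliferation genes had 0 of 26 members higher and 21 lower, with a median of -0.66 (0 and 14 with ribosomal list scaling). The ribonucleotide reductase gene Rrm2 was at 12.4, 12.4 and 13.4 CPM in KO and 26.6, 29.6 and 27.3 CPM in WT (a log2 ratio of -1.13 ± 0.09). Cdk1, the mitotic cyclin-dependent kinase gene, was at 34.7, 36.1 and 41.4 CPM against 65.1, 78.7 and 76 CPM (-0.97 ± 0.09). The thymidine kinase gene Tk1 was at -0.88. Cholesterol synthesis genes had 1 of 22 higher (the regulator gene Srebf2) and 13 lower, with a median of -0.29. Of that list, 1 was higher and 4 lower with ribosomal list scaling, where the sterol demethylase gene Cyp51 lost its call (edgeR adjusted p = 0.0514).

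Stress response genes, with p53 targets among them, had 8 of 22 higher and 3 lower (8 and 1 with ribosomal list scaling). The cell cycle inhibitor gene Cdkn1a was at 1468, 1334 and 1292 CPM in KO and 998, 915 and 906 CPM in WT (a log2 ratio of 0.54 ± 0.09), and Mdm2, which limits p53, was at 0.48. Glycolysis genes had 6 of 22 higher and 4 lower, with the pyruvate dehydrogenase kinase gene Pdk1 at -0.60 and the glycolytic activator gene Pfkfb3 at 0.47. Lysosomal genes had 11 of 25 higher and 3 lower (14 and 1 with ribosomal list scaling), with the cathepsin gene Ctss at 0.43.

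Lists of housekeeping and short-lived transcripts showed fewer or scaling-dependent calls. Nuclear genes of the respiratory chain had 1 of 30 higher and 12 lower (4 and 3 with ribosomal list scaling), led by the subunit gene Ndufa4 at -0.46. Ribosomal protein and elongation factor genes had 1 of 44 higher and 11 lower, and 6 and 2 when they themselves were the scale. Zinc-finger genes had 3 of 27 higher and 5 lower (4 and 1 with ribosomal list scaling), and host genes of small nucleolar RNAs had 0 of 12 higher and 1 lower (Snhg6, edgeR adjusted p = 0.0499, which passed in no fit that left out a KO library).

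**Figure D3:**
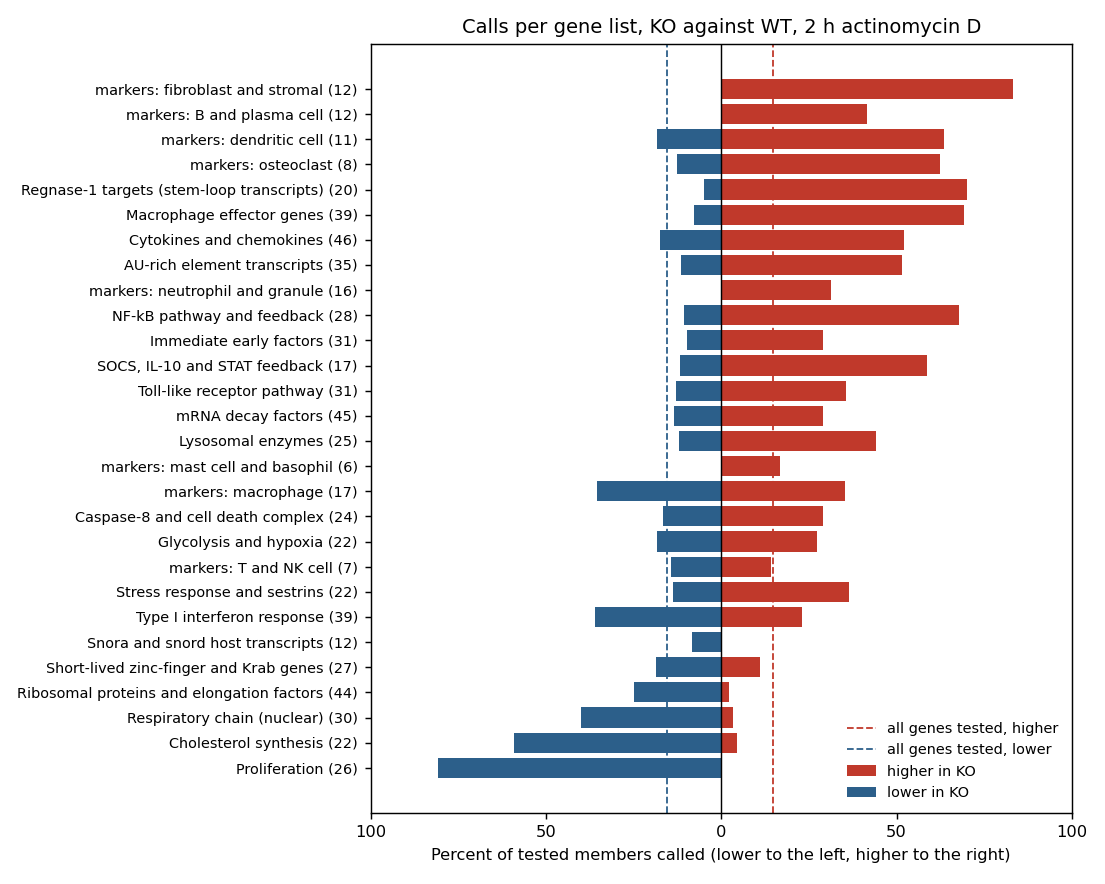
Percent of the tested members of each list called higher (red, to the right) or lower (blue, to the left) in KO, with list sizes in parentheses and dashed lines at the 14.7% and 15.4% of all genes. Proliferation extends farthest to the left and the fibroblast and stromal markers farthest to the right.

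Markers of some other cell types differed between the genotypes. Of the B and plasma cell markers whose sums are given above, 5 of 12 tested members were higher and 0 lower. Beside Igha and Jchain, the light chain gene Igkc was at 79.8, 77.5 and 84.8 CPM in KO and 32.7, 37.5 and 30.4 CPM in WT (a log2 ratio of 1.26 ± 0.10).

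Fibroblast and stromal markers summed to 90.1 to 106 CPM in KO and 49.1 to 59.6 CPM in WT, with 10 of 12 members higher and 0 lower. The collagen gene Col1a2 was at 10.8, 10.4 and 11.1 CPM against 6.05, 4.51 and 4.77 CPM (log2 1.08 ± 0.13), and Col1a1 at 1.15. Dendritic cell markers summed to 800 to 875 CPM in KO and 421 to 458 CPM in WT, with 7 of 11 higher and 2 lower (Clec9a and Siglech). Most of that sum was antigen presentation genes, led by the invariant chain gene Cd74 at 380, 353 and 340 CPM in KO and 164, 152 and 134 CPM in WT (1.25 ± 0.09).

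Osteoclast markers summed to 381 to 399 CPM in KO and 319 to 323 CPM in WT (5 of 8 tested members higher, 1 lower). The phosphatase gene Acp5 had a log2 ratio of 0.86, and the 1 lower was Atp6v0d2 (-0.42). Calcr had 0 counts in all 6 libraries and was not tested. T and NK cell markers summed to 31.3 to 34.7 CPM in KO and 17.3 to 19.1 CPM in WT. Cd4 made up 22.6 to 26.9 CPM of this in KO and 7.55 to 9.13 CPM in WT, while Cd3e, Trac and Gzma were at 0 counts in all 6 libraries. Neutrophil markers (895 to 995 CPM in KO, 917 to 963 in WT; 5 of 16 higher, 0 lower), mast cell markers (9.92 to 11.1 against 9.09 to 10.8 CPM) and erythroid markers (0.397 to 0.92 against 0.398 to 0.492 CPM) had overlapping sums. The part of these cells in the other differences was not tested.

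Of the macrophage markers, 6 of 17 were higher and 6 lower, and 8 and 3 with ribosomal list scaling. The Fc receptor genes Fcgr1 (906, 819.7 and 849.8 CPM in KO, 1297, 1198 and 1245 CPM in WT, a log2 ratio of -0.54) and Fcgr3 (-0.68) and the mannose receptor gene Mrc1 (-0.39) were lower. The co-receptor gene Cd14 was higher (0.34). Mrc1 lost its call with ribosomal list scaling (edgeR adjusted p = 0.148).

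Whether the genotype difference changed over 2 h of ActD was tested by an interaction. This was the difference after 2 h of ActD minus that at 3 h of R837 without ActD, which share no library. No cells without ActD were sampled at the later time, so the block and the further time in culture cannot be told apart. Only 8 of 13748 genes (0.0582%) passed in edgeR, 5 (0.0364%) with a higher and 3 (0.0218%) with a lower KO-to-WT ratio after the block, and 1047 had an unadjusted p below 0.05. The count was 43 with DESeq2, 28 with only the 12 libraries of the 4 groups in the fit and 0 with ribosomal list scaling. With that scaling the estimates of the 8 genes kept their direction, from 1.41 for Ccr7 to -0.74 for Vcpip1. Their edgeR adjusted p then ran from 0.269 to 0.518. Of the 4146 genes that differed after 2 h of ActD, 2720 had a 95% interval of the interaction within 0.5 log2 of 0. In 169 of them the estimate at 3 h had the opposite sign.

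**Figure D4:**
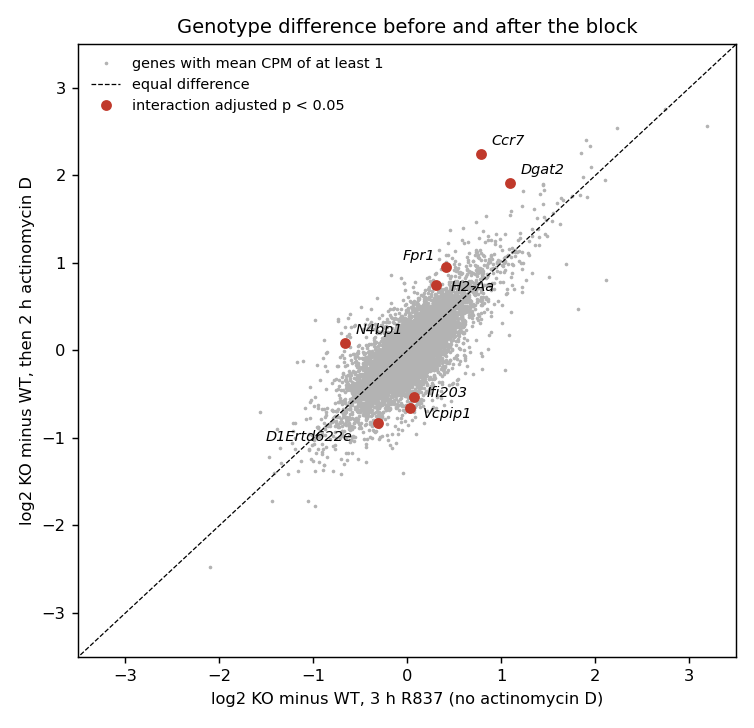
Log2 difference KO minus WT at 3 h of R837 (horizontal axis) and after a further 2 h of ActD (vertical axis) for genes with a mean CPM of at least 1, each a grey point. The 8 genes whose interaction passed are red, and the dashed line marks equal differences.

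For Tnf, Il6 and Cxcl1 the interaction lay near 0. Tnf lost most of its transcript in both genotypes, to 3.5% of the 3 h level in KO and 3.35% in WT. Its interaction was 0.06 (95% interval -0.11 to 0.23), and its log2 difference was 0.95, 0.84, 1.05, 1.01 and 0.98 at 0, 0.5, 1, 2 and 4 h of ActD. Il6 remained at 28.7% in KO and 26.5% in WT (interaction 0.13, interval -0.23 to 0.48). Cxcl1 remained at 20.6% and 21.3% (-0.04, interval -0.34 to 0.26).

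Cxcl2 remained at 40.9% in KO and 33.0% in WT, with an interaction of 0.31 (interval 0.06 to 0.57). Cxcl3 was at 123% of its 3 h level in KO and 95.1% in WT, with an interaction of 0.38 (interval 0.12 to 0.65). Both estimates were above 0, and neither passed after adjustment (edgeR adjusted p = 0.573 and 0.478). Il1b went from a log2 difference of 0.31 at 3 h to 0.52 (interaction 0.21, interval -0.02 to 0.45) and Il12b from 0.33 to 0.60 (0.27, interval -0.12 to 0.66). These percentages are relative to the average transcript, since CPM are shares and no spike-in was used here, so a value above 100% does not show new synthesis.

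Interferon response genes leaned one way in this test, although none passed. The interaction was below 0 in 35 of 39 members, with a median of -0.28 against -0.01 over all genes. An unadjusted p below 0.05 with a lower ratio was found in 20 of 39 members (51.3%) and in 676 of all genes (4.92%). Rsad2 was at 103% of its 3 h level in KO and 158% in WT (interaction -0.61 ± 0.17, edgeR adjusted p = 0.256). Cmpk2 was at 110% and 158% (-0.53 ± 0.16), and Tnfsf10 at 69.2% and 121% (-0.80 ± 0.20, edgeR adjusted p = 0.189). Members of one response are not independent of each other, and their common shift was not tested.

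Reported Regnase-1 targets had 14 of 20 interactions above 0 (median 0.15), against 6712 of 13748 over all genes (median -0.01). None of these targets passed the interaction test. They remained at a median of 30.3% in KO and 26.5% in WT. Immediate early genes remained at a median of 6.19% and 5.51%, and AU-rich element transcripts at 22.5% and 21.7%, against 101% and 102% over all genes. The lists of short-lived transcripts were thus depleted after 2 h of ActD in both genotypes. Dendritic cell markers had 11 of 11 interactions above 0, with a median of 0.42, against the same 6712 of 13748 over all genes. Only 7 of the 11 had a mean of at least 1 CPM over the groups compared. The list includes Ccr7 and H2-Aa, which passed the interaction test themselves, so it is not a separate observation.

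The genes that passed the interaction test were of several kinds. Ccr7, the chemokine receptor gene of migrating dendritic cells, went from 18, 17.5 and 19.6 CPM in KO to 3.34, 2.44 and 2.78 CPM, and from 10.8, 10.9 and 10.4 CPM in WT to 0.737, 0.533 and 0.547 CPM. Its KO level thus remained at 15.5% and its WT level at 5.66% (interaction 1.47 ± 0.29, edgeR adjusted p = 0.0346). Dgat2 went from 19.2, 17.6 and 18.6 CPM to 25.9, 23.6 and 24.3 CPM in KO and from 8.48, 8.72 and 8.78 CPM to 6.54, 5.26 and 8 CPM in WT (0.82 ± 0.17, edgeR adjusted p = 0.0489).

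Fpr1, the formyl peptide receptor gene, stayed at 99.2% of its 3 h level in KO and was at 68% in WT (interaction 0.55 ± 0.10). The class II antigen gene H2-Aa was at 126% and 92.8% (0.44 ± 0.08). N4bp1 itself had the smallest adjusted p of the 8 (0.75 ± 0.11, edgeR adjusted p = 0.000372), through the loss of counts in WT described above.

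On the other side, Vcpip1, encoding a deubiquitinase, went from 158, 144 and 144 CPM in KO to 14.5, 12.2 and 14.2 CPM, and from 149, 154 and 135 CPM in WT to 22.3, 18.8 and 23.4 CPM. Vcpip1 thus had overlapping groups before the block and separate ones after it (interaction -0.68 ± 0.12, edgeR adjusted p = 0.0119). Ifi203, an interferon-induced gene of a family of near-identical copies and so uncertain, was at 120% in KO and 182% in WT (-0.61 ± 0.13). D1Ertd622e, a gene of little known function, was at 62.1% and 88.4% (-0.51 ± 0.11). N4bp1 alone of the 8 passed the interaction in edgeR whichever of the 6 libraries was left out.

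**Figure D5:**
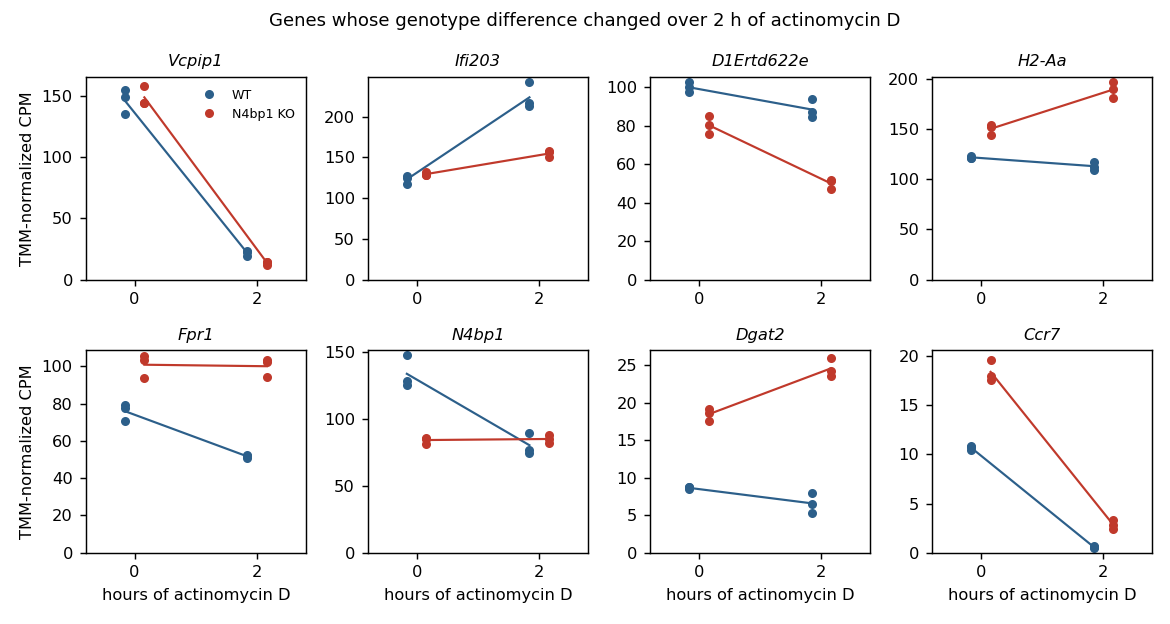
TMM-normalized CPM (vertical axis, from 0) at 0 and 2 h of ActD for the 8 genes whose interaction passed, with 1 point per library (WT blue, KO red) and lines joining group means. For Fpr1 and N4bp1 the WT line falls while the KO line stays level, and for Ifi203 the WT line climbs more steeply.

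At the other ActD times, in other libraries, the 5 genes with a higher ratio were also above their 3 h difference at 4 h. The log2 difference of Ccr7 was 0.78, 1.24, 1.83, 2.25 and 2.83 at 0, 0.5, 1, 2 and 4 h. That of N4bp1 was -0.67, -0.74, -0.62, 0.08 and 0.61, so that KO was the higher genotype at 4 h. H2-Aa went through 0.30, 0.43, 0.66, 0.74 and 0.88. For Vcpip1 the values were 0.03, -0.15, -0.56, -0.65 and -0.18 and for Ifi203 0.08, -0.14, -0.51, -0.53 and -0.23. For D1Ertd622e they were -0.32, -0.57, -0.63, -0.82 and -0.66. At 4 h each of these genes was nearer to 0 than at 2 h, but further from 0 than at 0 h of ActD. These series share the 3 h libraries as their start and were not tested beyond the interaction at 2 h.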

How the data were processed

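Reads were aligned with GSNAP to GRCm38, per the submitters' processing notes; no source used here gives the counter, annotation or strand setting. The authors deposited, per gene and library, a whole-number count over exons and an RPKM value, which entered only the per-length levels and a check in which counts summed to 90.86 to 91.76% of the total the RPKM values imply. Of 52636 gene identifiers 52403 got a symbol from GENCODE M21; the others held 0.0137 to 0.0186% of the counts of the 6 libraries.

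Computed here were TMM scaling, the filterByExpr filter (13748 genes tested) and edgeR 4.0.16 quasi-likelihood F tests (R 4.3.3) in 1 model of the 12 groups on 36 libraries, called at an adjusted p below 0.05. The biological coefficient of variation was 7.48%. The main fit was tested on simulated data, and its alternatives were not. Alternatives were RLE and ribosomal list scaling, no filter, CPM of at least 1 in 3 libraries, an adjusted p below 0.01, DESeq2 1.42.0, only the groups compared, removal of the gene-length trend and leaving out each library.

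Named genes were N4bp1, 9 cytokines, the 12 highest and 12 lowest differences (mean CPM of at least 5, groups apart), up to 8 interactions each way and the 4 members with the smallest p per list; other genes were named after their values were seen. Predicted genes were not ranked. The members and lists were chosen with earlier results of these data known. Replicates were numbered in record order. Sequences are from GENCODE M21 transcripts; no genome or protein sequence was used here. The result of 1 marker gene is not reported here.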

Additional observations from a re-analysis of the deposited data

Results flagged for a closer look

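The genotype difference changed between 3 h of R837 and 2 h of ActD in 8 genes by a test of the difference itself (edgeR interaction, adjusted p below 0.05). The log2 interaction was 1.47 for Ccr7, 0.82 for Dgat2, 0.75 for N4bp1, 0.55 for Fpr1 and 0.44 for H2-Aa. It was -0.51 for D1Ertd622e, -0.61 for Ifi203 and -0.68 for Vcpip1. With the gene-length trend removed, Ccr7, N4bp1, H2-Aa and Fpr1 passed, and D1Ertd622e moved to -0.23 (edgeR adjusted p = 0.804). The mean level of Ccr7 in WT after ActD lay below 1 CPM, so its ratio rests on few counts.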

How the results depend on the processing

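No paired analysis was possible because the labels carry no replicate numbers. No gene that was named by rule and passed reversed its direction under any alternative. Genes named after their values were seen were not checked one by one in this way. Ribosomal list scaling gave 773 genes lower in KO, 63 of them at least 2-fold, and 0 interactions; 2793 of the 4146 calls (67.4%) were kept. At an adjusted p below 0.01, 2574 genes passed, 1324 higher and 1250 lower, with 79 at least 2-fold lower and 1 interaction. The interaction count was 75 with no filter, 28 with only the groups compared, 4 with the length trend removed and 43 with DESeq2. Leaving out 1 library gave 2990 to 3899 differences and 1 to 4 interactions, each fewer than in the whole set, which has more libraries. Of the genes named by rule, 9 lost their call with ribosomal list scaling, 7 without the second WT library and 6 without the second KO library. The causes were not tested, beyond the fewer libraries in those fits. The precision, with 3 mice per genotype, is given by a median SE of 0.12 log2 for a difference and 0.17 for its interaction.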
